A study of Mus musculus with 12 samples.

Results

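The comparison described is that of hearts from mice on a high-iron diet with hearts from mice on a control diet, across all genes and pathways that the arrays measured. It takes 6 of the 12 arrays of the series, chosen by the tissue and diet in the sample labels, and the other 6 arrays hold skeletal muscle of mice on the same diets. The high-iron group was 3 C57BL/6 males fed 2% iron for 6 weeks, and the control group was 3 C57BL/6 males fed 0.02% iron for the same time, all 18 weeks old and with no transgene or deletion named. The labels call each array a biological replicate of cardiac muscle and do not say which chamber was taken. Diet lasted 6 weeks, the groups hold 3 mice each, and no iron content or heart function of these mice was measured on the arrays, which limits what each group models. For its mice on this diet, the study reports highly loaded livers and a much smaller rise of heart iron, not significant in every group.

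Iron enters heart muscle cells mainly as transferrin through the transferrin receptor (Tfrc), is stored in ferritin, whose heavy and light chains are Fth1 and Ftl1, and leaves through ferroportin (Slc40a1). Iron-regulatory proteins bind the messages of these genes, so that low iron stabilises Tfrc mRNA and blocks ferritin translation, while high iron does the reverse, and ferritin can therefore change as protein without a change in its mRNA. Heart muscle burns mostly fatty acids, and the nuclear receptor PPAR-alpha switches on genes of fat use, among them those that turn glucose oxidation down.

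The labelled tissue was checked against its markers. Of the 13 ventricular markers, 12 lay at the 98.7th percentile of heart signal or above, and Irx4, a ventricular transcription factor, read 245, 276 and 284 in high-iron hearts and 251, 291 and 322 in control hearts. Tnnt2, cardiac troponin T, read 65371, 53969 and 56804 in high-iron hearts and 50961, 66067 and 56804 in control hearts, in units of normalized signal, where the median probe of the heart arrays averages 255. Some markers of skeletal muscle fibres were dim. Myh4 read 203, 205 and 182 in high-iron hearts and 210.2, 184 and 204 in control hearts (2.6th percentile of heart signal). Tnnt3 read 232, 224 and 260.1 in high-iron hearts and 231, 246 and 239.9 in control hearts (31.3rd percentile). Others lay above the median probe, with Ckm at the 99.2nd percentile of heart signal, Myl1 at the 92.5th, Mybpc2 at the 88th and Tnni2 at the 76.8th. Levels of different genes come from different probes and are not compared with each other.

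Array 1 of the high-iron group and array 2 of the control group stood apart. The study's methods name a hybridization problem on 1 heart array of each diet without saying which, and exclude only some probes of them. That these are the arrays meant was not stated. The study's gene lists mark Angptl4, Pdk4 and Acta1, among others, as resting on 2 samples of each diet. The probes used here for these 3 genes have shorter IDs, and their values on all heart arrays were kept in the fit by ID range described below. On these 2 arrays the probes that differed were those whose ID number has 9 digits. Among the 22084 probes with 9-digit IDs, of which 8566 carry a gene symbol, pairs that included either array correlated at 0.717 to 0.816, against 0.976 to 0.979 for the other pairs. Among the 24049 probes with shorter IDs, of which 20976 carry a symbol, every pair of heart arrays correlated at 0.983 to 0.99. The difference shows in the 99th percentile of the signal before normalization over the 9-digit probes, which was 757 on high-iron array 1 and 712 on control array 2, against 1482 to 2157 on the other 4. The signals given in the text come from quantile normalization over all 12 arrays, and on the same 2 arrays bright probes with shorter IDs read higher in it. The summed signal of 12 ventricular markers with shorter IDs was 412189 on high-iron array 1 and 421549 on control array 2, against 318885 to 331434 on the other 4 heart arrays.

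**Figure D1:**
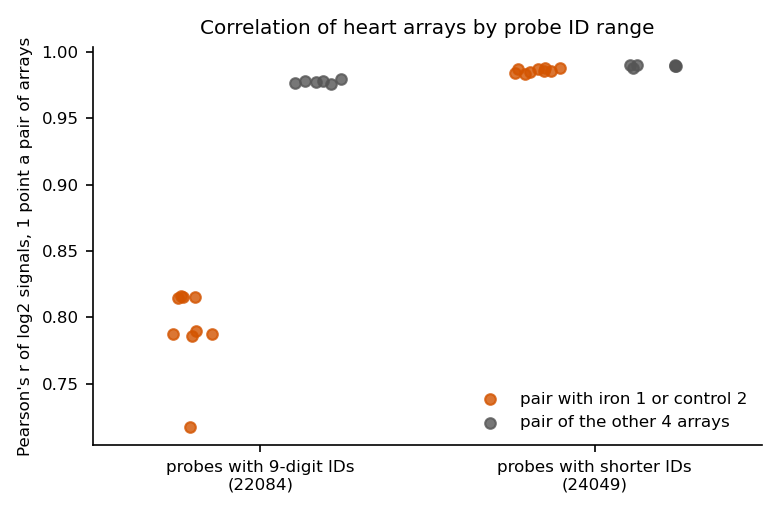
Pearson's r of log2 normalized signals for each pair of heart arrays (1 point a pair), split by the length of the probe ID, with pairs that include high-iron array 1 or control array 2 in orange and the other pairs in grey. With 9-digit IDs the orange pairs sit at 0.717 to 0.816, while with shorter IDs all pairs lie above 0.98.

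The diets were compared in 3 fits with limma, each with p-values adjusted over all 46133 probes. With all 6 arrays normalized together, 0 probes passed an adjusted p of 0.05 (0%; smallest adjusted p 0.287), and 1180 probes (2.56%) had an unadjusted p under 0.05, 514 higher (1.11%) and 666 lower (1.44%) in high-iron hearts. Without the 2 arrays that stood apart, 28 probes passed in the fit on 4 arrays, 16 higher (0.0347% of all probes) and 12 lower (0.026%), and they include 23 named genes. In a fit chosen after the data were seen, the 2 ID ranges were normalized apart and the 9-digit probes of those 2 arrays were set to missing, so that probes with shorter IDs kept all 6 arrays. By ID range, 42 probes passed, 16 higher (0.0347%) and 26 lower (0.0564%), which covers 33 named genes. Of the 42, 21 also passed on 4 arrays, 34 have shorter IDs, and 33 of those 34 had signals that did not overlap between the diets. Without an overlap were 8.27% of all probes with shorter IDs. When each array scaled to its median replaced quantile normalization, 0 probes passed in any of the 3 fits. In what follows, a gene is said to rise or fall where it passed by ID range or on 4 arrays, and the fit is named. Fold changes are log2 of high iron over control. By ID range 0.0623% of all named genes rose and 0.113% fell, so 0 calls in a short list says little about its pathway.

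A set of 8 probes passed by ID range whichever of the 6 arrays was left out. Of these, 6 carry a symbol, namely Angptl4, Txnip, Rrad and Cyp26b1, which rose, and Hsph1 and Acta1, which fell. Txnip and 1 of the 2 unnamed probes have 9-digit IDs and rest on 4 arrays, so that leaving out high-iron array 1 or control array 2 removes no value of theirs, and leaving out any other array leaves 1 array on a diet, assumed to vary like the other diet. The other 34 were lost without at least 1 array, 33 of them without control array 1 and 27 without control array 2, with adjusted p of up to 0.424, and all 42 kept their direction with any array left out. Sizes over all 42 ran from 0.39 to 1.61 on the log2 scale in either direction.

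**Figure D2:**
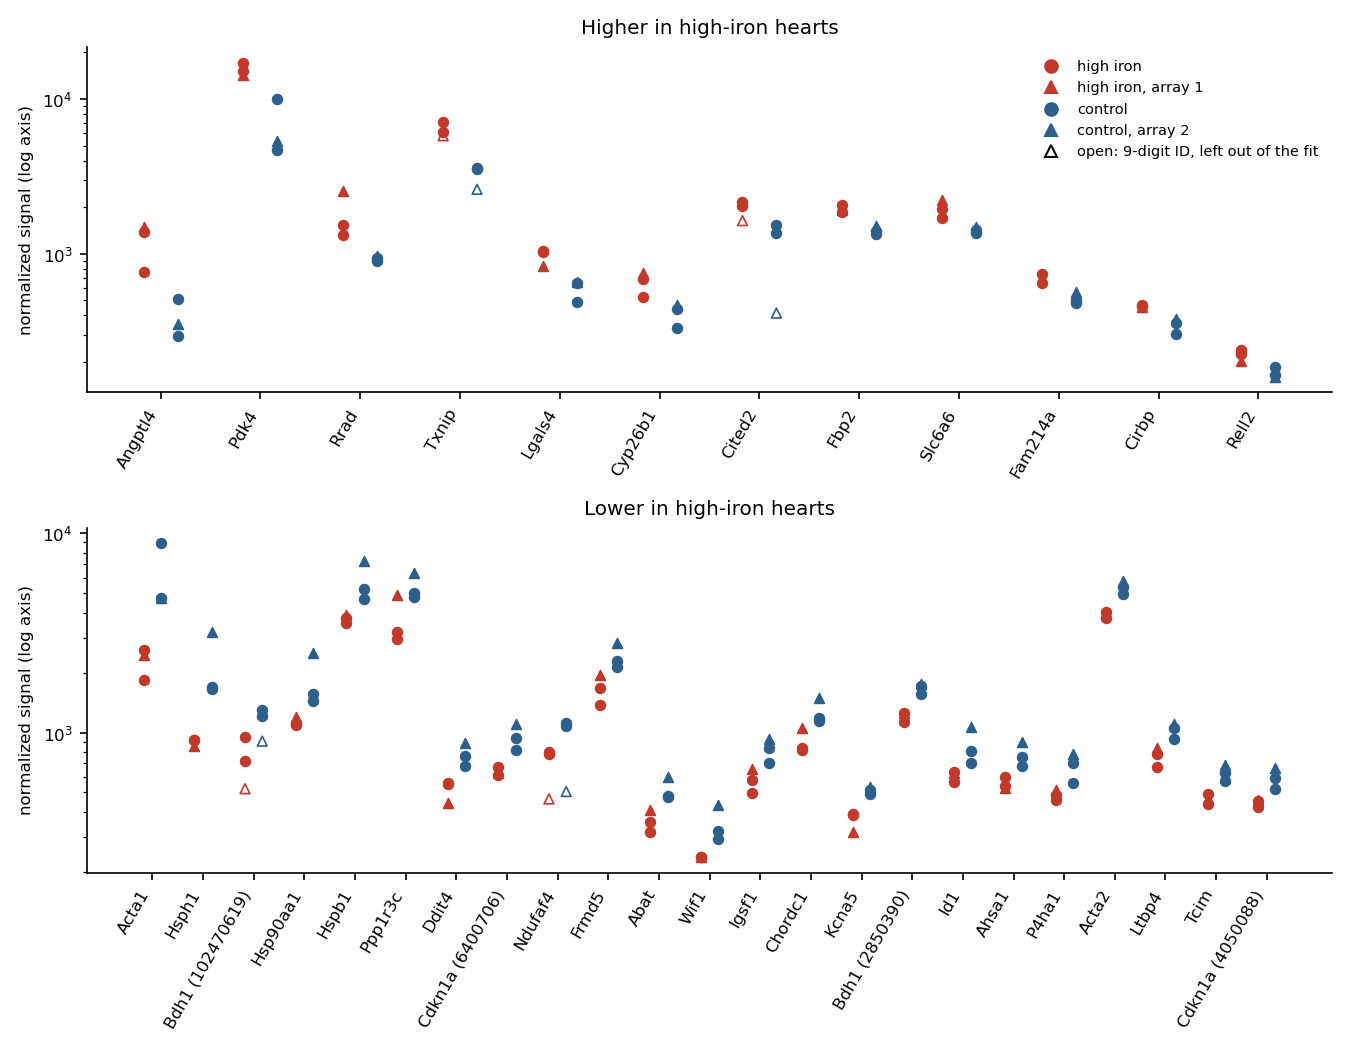
Normalized signal on each heart array (log axis) of the named genes that passed by ID range, those higher in high-iron hearts above and those lower below, ordered by the size of the change; red points are high-iron arrays, blue points control arrays, and triangles the 2 arrays that stood apart, drawn open where the probe was left out of the fit. Angptl4 lies at 759 or above on the high-iron arrays and at 512 or below on the control arrays, and Hsph1 at 913 or below on the high-iron arrays and at 1654 or above on the control arrays.

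The largest rises were in genes that PPAR-alpha drives and that hold back glucose use or fat uptake. Angptl4, a secreted inhibitor of lipoprotein lipase, read 1493, 1389 and 759 in high-iron hearts and 512, 354 and 295 in control hearts. Every high-iron array was above every control array, and the fold change was 1.61 ± 0.18 (SE) by ID range (adjusted p 0.00042) and 1.4 on 4 arrays (adjusted p 0.0108). Pdk4, the kinase that shuts off pyruvate dehydrogenase and so spares glucose, read 14259.7, 17142 and 15151 in high-iron hearts and 10034, 5319 and 4673 in control hearts, again with no overlap but with control array 1 well above the other control arrays. Its fold change was 1.33 ± 0.21 by ID range (adjusted p 0.00857), was no longer past the threshold without control array 2 or without control array 3 (adjusted p of up to 0.0679), and was 1.23 on 4 arrays (adjusted p 0.0235).

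Most of the PPAR-alpha targets measured did not pass. Of 23 such genes, Angptl4 and Pdk4 rose and none fell by ID range, where 0.0623% of all named genes rose and 0.113% fell, and the median fold change of the list was 0.05 against 0.00 over all named genes. Below the threshold, Mlycd, malonyl-CoA decarboxylase, had 2991, 2979 and 2786 in high-iron hearts and 2254, 2641 and 2356 in control hearts (0.28 ± 0.08, adjusted p 0.372 by ID range), and Ehhadh, a peroxisomal enzyme of fat oxidation, had 0.25 ± 0.08 (adjusted p 0.654). Cpt1b, which admits long-chain fatty acids to the mitochondrion, gave 0.06 ± 0.07. None of the 21 genes of fatty acid oxidation passed, their median being 0.02, nor did any of the 81 respiratory chain and ATP synthase genes (median 0.00) or the 18 genes of the tricarboxylic acid cycle (median 0.00).

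Single genes of sugar, ketone and amino acid metabolism moved. Fbp2, the fructose bisphosphatase of muscle, rose, with 1921, 1866 and 2078 in high-iron hearts and 1397, 1516 and 1351 in control hearts (0.46 ± 0.08, adjusted p 0.0302 by ID range and 0.0291 on 4 arrays). It was the 1 gene of 25 in the list of glycolysis and glucose uptake to pass by ID range, where 0.0623% of all named genes rose. Bdh1, which interconverts the 2 main ketone bodies, fell, with 1253, 1247 and 1124 in high-iron hearts and 1703, 1759.5 and 1565 in control hearts (fold change -0.47 ± 0.08, adjusted p 0.0163 by ID range and 0.0703 on 4 arrays). A second Bdh1 probe, with a 9-digit ID, also passed (-0.68, adjusted p 0.0192), while a dim probe near background gave 0.04. Bdh1 was the only call by ID range among 7 genes of ketone body metabolism, where 0.113% of all named genes fell.

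Ppp1r3c, a subunit that directs a phosphatase to glycogen, read 4886, 2934 and 3201 in high-iron hearts and 5019, 6303 and 4781 in control hearts. High-iron array 1 lay above control array 3, so the groups overlapped, and the gene fell by ID range (-0.57 ± 0.09, adjusted p 0.0107) and on 4 arrays (-0.68, adjusted p 0.0018). Abat, the mitochondrial transaminase that breaks down GABA, fell as well, with 409, 316 and 355 in high-iron hearts and 482, 596 and 476 in control hearts (-0.51 ± 0.08, adjusted p 0.0084 by ID range and 0.0303 on 4 arrays), while a dim Abat probe near background gave 0.09. Both stood alone in their lists, 1 gene of 17 for glycogen metabolism and 1 of 19 for breakdown of branched-chain amino acids and GABA (against 0.113% of all named genes by ID range).

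Txnip, which binds and inhibits thioredoxin and lowers glucose uptake, rose. Its probe has a 9-digit ID, so the fit by ID range rests on high-iron arrays 2 and 3 and control arrays 1 and 3. It read 5789.7, 7140.0 and 6080.2 in high-iron hearts and 3583, 2609 and 3519.5 in control hearts, with no overlap also when the 2 arrays that stood apart are counted. The fold change was 0.86 ± 0.10 (adjusted p 0.000537) by ID range and 0.89 on 4 arrays (adjusted p 0.00019). Its arrestin relative Arrdc4 had 387, 360.2 and 377 in high-iron hearts and 309, 336 and 307 in control hearts, which did not pass (0.24 ± 0.07, adjusted p 0.424). Txnip was the single call among 10 thioredoxin and arrestin genes (against 0.0623% of all named genes that rose by ID range). The 22 antioxidant enzymes gave no call, with Sod2, the mitochondrial superoxide dismutase, at -0.05 ± 0.07 and Cat, catalase, at 0.01 ± 0.08.

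Among genes of iron uptake, Tfrc was the only 1 of 12 to pass in any fit, and it did so on 4 arrays. The transferrin receptor read 1085, 565 and 548 in high-iron hearts and 964, 869 and 1154 in control hearts. On high-iron arrays 2 and 3 it lay below every control array, but on high-iron array 1 it was among the highest. It fell by 0.92 ± 0.09 on the log2 scale on 4 arrays (adjusted p 0.00019, where 0.026% of probes fell) and by 0.51 ± 0.15 by ID range, which did not pass (adjusted p 0.522). The Tfrc probe has a shorter ID, so its value on high-iron array 1 was kept in the fit by ID range. Why it was high on that array was not tested. The 11 other genes of the list, Tfr2, Slc11a2, Slc39a14, Slc39a8, Steap3, Steap4, Cybrd1, Trf, Lcn2, Lrp1 and Cd163, averaged between 228 and 382 in high-iron hearts and between 228 and 368 in control hearts, close to the median probe, and none of their fold changes passed. Dim probes leave little room to see a fall.

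None of the 15 genes of iron storage, export and sensing passed in any fit. Fth1, ferritin heavy chain, read 4271, 5609.6 and 4235 in high-iron hearts and 6032, 7095 and 5899 in control hearts, lower without overlap (-0.43 ± 0.11, unadjusted p 0.00105, adjusted p 0.338 by ID range). Ftl1, the light chain, read 6576, 5402 and 5636 in high-iron hearts and 6944, 6966 and 5434 in control hearts, with overlap (-0.12 ± 0.08). Slc40a1, ferroportin, the iron exporter, read 1016, 1005 and 1032 in high-iron hearts and 914, 918 and 733 in control hearts, higher without overlap (0.26 ± 0.08, adjusted p 0.645). Pcbp1, a chaperone that hands iron to ferritin, had 774, 868 and 758 in high-iron hearts and 879, 1263 and 913 in control hearts (-0.31 ± 0.09, adjusted p 0.513), while its relative Pcbp2 gave 0.10 ± 0.07.

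The rest of that list lay near 0. The sensors Aco1 and Ireb2, which as iron-regulatory proteins bind ferritin and Tfrc messages, had fold changes of -0.04 ± 0.07 and 0.04 ± 0.07 by ID range. The mitochondrial iron importers Slc25a37 (0.03 ± 0.09) and Slc25a28 (0.02 ± 0.08), the ferritin-degradation receptor Ncoa4 (0.00 ± 0.07) and the ferroxidase Cp (0.02 ± 0.09) were likewise within 1 SE of 0. Ftmt, Heph, Fbxl5 and Hfe had probes that averaged between 242 and 305 in high-iron hearts and between 249 and 303 in control hearts.

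Genes of systemic iron control were also measured in the heart. Hjv, hemojuvelin, a co-receptor for bone morphogenetic proteins, read 6743, 5197 and 4651 in high-iron hearts and 6005, 6896 and 5609.6 in control hearts, with overlap (-0.16 ± 0.08, adjusted p 0.94), and Hamp, which encodes hepcidin, read 399, 296 and 276 in high-iron hearts and 361, 342 and 276 in control hearts. Id1, a transcription inhibitor induced by bone morphogenetic proteins, was the only 1 of 19 genes of this pathway to pass (against 0.113% of all named genes that fell by ID range). It read 625, 563 and 636 in high-iron hearts and 805, 1065 and 704 in control hearts (-0.46 ± 0.09, adjusted p 0.0469 by ID range), and its call was lost when any of 4 of the 6 arrays was left out (adjusted p of up to 0.323). Heme synthesis and breakdown (12 genes), iron-sulfur cluster assembly (13 genes) and the metallothioneins with zinc exporters (7 genes) gave no call. Hmox1, heme oxygenase, had -0.13 ± 0.08, and Mt1, a metallothionein that binds zinc, had 13426, 10932 and 11276 in high-iron hearts and 14555, 15981 and 11527 in control hearts (-0.24 ± 0.08, adjusted p 0.753).

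**Figure D3:**
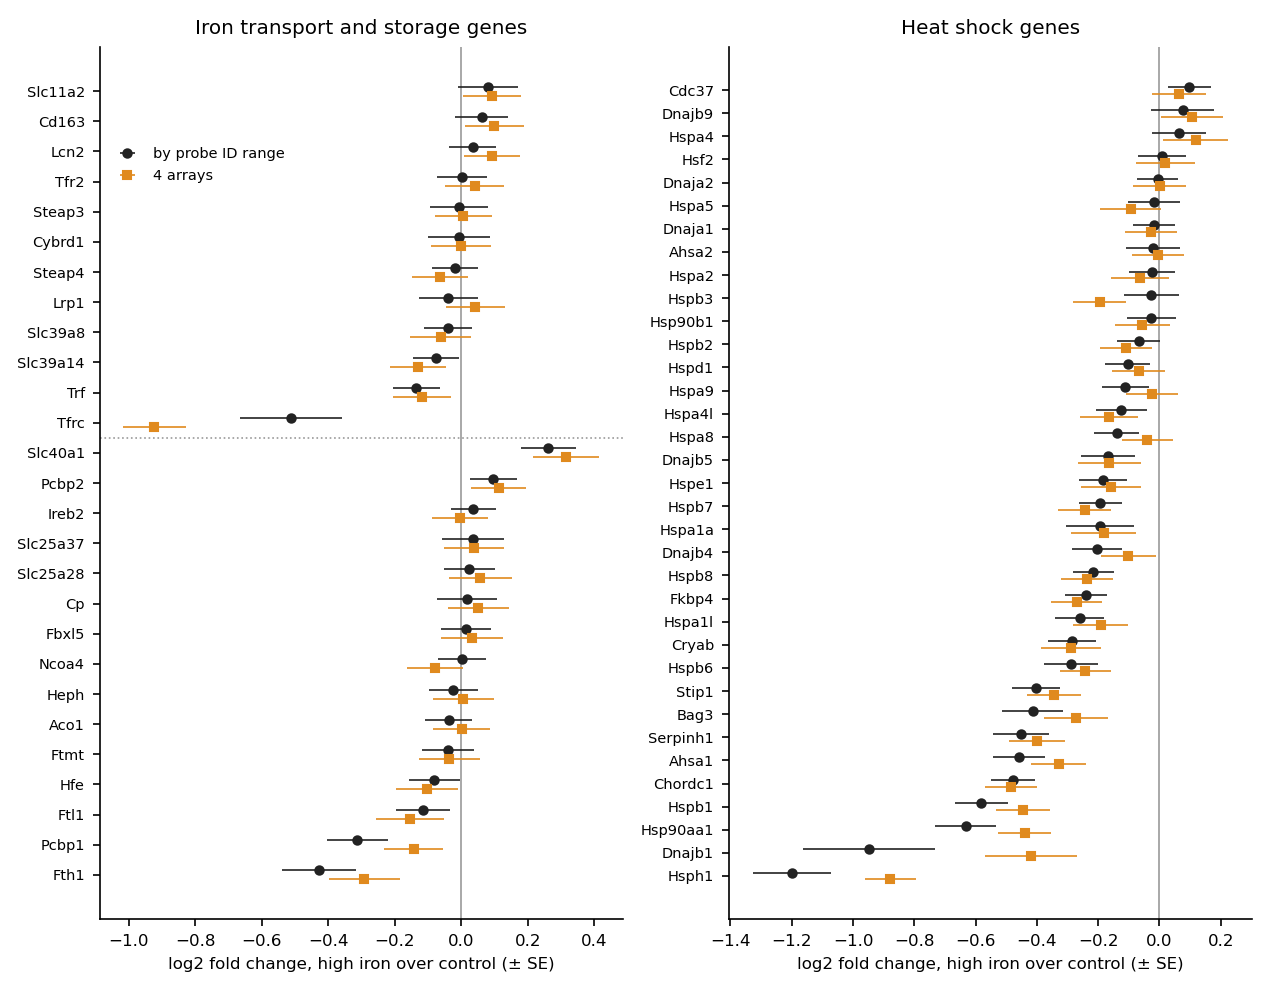
Log2 fold change, high iron over control, with its standard error for the iron genes (left, uptake above the dotted line and storage, export and sensing below it) and the heat shock genes (right), by ID range (black circles) and on 4 arrays (orange squares). Tfrc stands at -0.92 on 4 arrays and -0.51 by ID range, and of the heat shock genes only 4 of 35 lie above 0 by ID range.

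Heat shock genes were lower as a group. These genes encode chaperones that fold proteins or carry them to degradation, and their common activator, heat shock factor, binds repeats of GAA and its complement. Of 35 genes measured, 0 rose and 5 fell by ID range (against 0.0623% and 0.113% of all named genes), 17 were lower at an unadjusted p under 0.05 (3.31% of named genes), and 4 lay above 0, against 51.3% of all named genes. The median was -0.18 by ID range and -0.16 on 4 arrays, where 0 genes rose and 2 fell (against 0.0736% and 0.0453% of all named genes), and 0.00 over all named genes by either fit. The summed signal of the 31 genes with shorter IDs was 129514, 106431 and 104879 on the high-iron arrays and 124685, 178749 and 119001 on the control arrays. The sums overlapped between the diets, high-iron array 1 lay above control arrays 1 and 3, and both this array and control array 2, the highest, are those on which bright probes with shorter IDs read higher.

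Hsph1, a large chaperone of the Hsp110 family, moved most. It read 851, 912 and 913 in high-iron hearts and 1654, 3190.2 and 1702 in control hearts, and the groups lay well apart. Its fold change was -1.20 ± 0.13 by ID range (adjusted p 0.00042) and -0.88 ± 0.08 on 4 arrays, where it had the smallest adjusted p of all probes (0.000165). Chordc1, a cochaperone of Hsp90, had 1052, 835 and 819.6 in high-iron hearts and 1178, 1498 and 1137 in control hearts (-0.48 ± 0.07, adjusted p 0.0084 by ID range and 0.0334 on 4 arrays).

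Hspb1, the small heat shock protein Hsp27, fell by ID range only, with 3896, 3558 and 3756 in high-iron hearts and 5269.7, 7257 and 4695 in control hearts (-0.58 ± 0.09, adjusted p 0.00819). Hsp90aa1, the inducible Hsp90, had 1192, 1111 and 1097 in high-iron hearts and 1562, 2499 and 1437 in control hearts (-0.63 ± 0.10, adjusted p 0.0107), and Ahsa1, an activator of Hsp90, had 525, 598 and 542 in high-iron hearts and 749.6, 897 and 682 in control hearts (-0.46 ± 0.08, adjusted p 0.0364). On 4 arrays their adjusted p were 0.095, 0.0756 and 0.551 in that order. All 5 had no overlap between diets, and all were highest on control array 2.

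The other members below the threshold include Bag3, a cochaperone of muscle (-0.41 ± 0.10), Stip1, which links Hsp70 and Hsp90 (-0.40 ± 0.08, adjusted p 0.0563), and Serpinh1, the collagen chaperone (-0.45 ± 0.09, adjusted p 0.0791). Dnajb1, an Hsp40 cochaperone, read 1255, 1239.7 and 2059 in high-iron hearts and 2251, 5293 and 2027 in control hearts, with overlap, and did not pass (adjusted p 0.161 by ID range). The abundant chaperones Hspa8 (-0.14 ± 0.07) and Hspd1 (-0.10 ± 0.07) gave smaller negative values, and Hspa4, Dnajb9, Hsf2 and Cdc37 were the 4 with positive values.

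The binding motif of heat shock factor was looked for in the promoters of these genes in RefSeq (GRCm38.p6), from 250 bases before to 50 bases after the start, because several members were lower together. The patterns searched, on both strands, were GAA, TTC and GAA with 2 free bases between each, and TTC, GAA and TTC spaced alike, and overlapping matches were counted apart. They occur in 198 of 32851 promoters (0.603%) and in 4 of the 30 heat shock promoters found in the table (13.3%). Among the 4 of the 5 genes that fell whose promoter is in the table, Hsph1 and Chordc1 held a match. The matching stretches are given on the strand of each gene, 5′ to 3′, with the motif in capitals, so that the 2 genes that fell in both fits can be set beside the pair Hspe1 and Hspd1, which share 1 stretch between them on opposite strands and did not pass (Hspe1 at -0.18 ± 0.08).
Hsph1: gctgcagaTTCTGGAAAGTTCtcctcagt
Chordc1: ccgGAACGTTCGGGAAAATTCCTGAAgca
Hspe1: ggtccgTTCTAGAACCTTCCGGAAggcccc
Hspd1: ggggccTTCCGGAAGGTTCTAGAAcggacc
The Hsph1 stretch is at chr5:149636280-149636308 on the minus strand and its motif begins 16 bases after the annotated start. In Chordc1, at chr9:18292260-18292288 on the plus strand, 3 matches overlap across the start, the first beginning 4 bases before it. The shared stretch is at chr1:55088053-55088082, plus strand for Hspe1 and minus strand for Hspd1. A match describes the letters of the window and no binding was measured.

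Within the sarcomere, skeletal alpha-actin fell and the beta-myosin heavy chain was higher on 4 arrays. Acta1 encodes the actin of skeletal muscle, which the heart also makes and raises under load. It read 2460.2, 1827 and 2583 in high-iron hearts and 8899, 4713 and 4746 in control hearts, and the groups were far apart, with control array 1 the highest. The fold change was -1.35 ± 0.19 by ID range (adjusted p 0.00438) and -1.58 ± 0.19 on 4 arrays (adjusted p 0.00115). Of the 14 skeletal fibre markers, Acta1 was the only 1 to pass. Myh4 and Tnnt3, quoted above, stayed near background on every heart array, while Ckm, Myl1 and Mybpc2 read above it. The summed signal of the list, Acta1 included, was 10241 to 11820 in high-iron hearts and 13645 to 18161 in control hearts. The fall of Acta1 is part of that gap, so the sum does not show that the other members fell. Of the 12 members with shorter IDs, Acta1 alone had no overlap between the diets. Ckm read 5647, 5004 and 4537 in high-iron hearts and 5610, 6263 and 5278 in control hearts, with overlap.

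Acta2, the actin of smooth muscle, read 3955, 3779 and 4014 in high-iron hearts and 4944, 5770.0 and 5389 in control hearts, and fell by ID range (-0.44 ± 0.08, adjusted p 0.0427) but not on 4 arrays (adjusted p 0.17). Whether fewer smooth muscle cells or less RNA per cell lies behind such a difference cannot be told apart in bulk tissue, here or for any other gene described. Myh7, the slow beta-myosin, rose on 4 arrays (0.88 ± 0.15, adjusted p 0.0303) with 3157, 2528 and 3702 in high-iron hearts and 1979, 3207 and 1399 in control hearts. Control array 2 was above 2 of the 3 high-iron arrays, and by ID range the change was 0.59 ± 0.16 (adjusted p 0.377).

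Myom2, a protein of the sarcomere's M-band, likewise rose on 4 arrays only, with 5302, 5653 and 5789.7 in high-iron hearts and 3873, 5551 and 4235 in control hearts. The adult alpha-myosin Myh6 read 2566, 4423 and 2436 in high-iron hearts and 3995, 4189 and 4651 in control hearts and did not pass (adjusted p 0.839 by ID range). Of all 27 sarcomere genes, 0 rose and 2 fell by ID range (against 0.0623% and 0.113% of all named genes), and 2 rose and 1 fell on 4 arrays (against 0.0736% and 0.0453%). The stress genes Nppb, a natriuretic peptide (0.00 ± 0.16), and Ankrd1 (-0.29 ± 0.13, adjusted p 0.912) did not pass.

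Genes of excitation and signalling followed. Rrad, a small GTPase that inhibits voltage-gated calcium channels, rose, with 2550.2, 1530.4 and 1320.4 in high-iron hearts and 893, 963 and 942 in control hearts. There was no overlap, high-iron array 1 was the highest, and the fold change was 0.88 ± 0.12 by ID range (adjusted p 0.00185) and 0.63 ± 0.09 on 4 arrays (adjusted p 0.00641). Kcna5, a voltage-gated potassium channel, read 316, 386 and 388 in high-iron hearts and 493, 535 and 512 in control hearts and fell by ID range (-0.48 ± 0.09, adjusted p 0.0309), the 1 call among 86 potassium channel genes (against 0.113% of all named genes that fell). No call by ID range came from 33 sodium and calcium channel genes or 18 genes of calcium handling. Slc6a6, the taurine transporter, rose by ID range with 2226, 1958 and 1702 in high-iron hearts and 1427, 1494 and 1364 in control hearts (0.45 ± 0.07, adjusted p 0.0163).

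The immediate early genes Fos and Egr1, transcription factors that switch on within minutes of a stimulus, rose on 4 arrays. Fos read 861, 602 and 609 in high-iron hearts and 405, 732 and 294 in control hearts (0.81 on 4 arrays, adjusted p 0.00429, and 0.64 by ID range, adjusted p 0.377). Egr1 read 2015, 829 and 750.5 in high-iron hearts and 542, 3642 and 549 in control hearts, so that 1 array of each diet was several times the others and the change by ID range was 0.09 ± 0.41. No other gene of the 27 in the list passed in these 2 fits.

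Among further regulators, Cited2, which restrains the hypoxia response, rose by ID range and on 4 arrays (0.53 ± 0.09, adjusted p 0.0337, and 0.54, adjusted p 0.0229) on a 9-digit probe, with control array 2 far below the rest (1638, 2149.5 and 2047 in high-iron hearts, 1528, 414 and 1359.8 in control hearts). By ID range the change on this probe ran from 0.42 to 0.64 with 1 array left out. A dimmer Cited2 probe with a shorter ID gave 0.07 ± 0.07 (adjusted p 0.989 by ID range). P4ha1, a prolyl hydroxylase of collagen that hypoxia induces, fell by ID range with 512, 460.1 and 486 in high-iron hearts and 701, 781 and 555 in control hearts (-0.46 ± 0.08, adjusted p 0.0302). The hypoxia list of 18 genes thus held 1 rise and 1 fall by ID range (against 0.0623% and 0.113% of all named genes), with 2 genes higher and 6 lower at an unadjusted p under 0.05 (against 3.04% and 3.31%). Cdkn1a, the cell-cycle inhibitor p21, fell by ID range on 2 probes, the brighter with 626, 674 and 611 in high-iron hearts and 936, 1104 and 819.9 in control hearts (-0.55 ± 0.08, adjusted p 0.00819) and the dimmer at -0.39 (adjusted p 0.042). Ddit4, a stress-induced inhibitor of mTOR signalling, read 442, 561 and 549 in high-iron hearts and 761, 886 and 676 in control hearts (-0.56 ± 0.10, adjusted p 0.0302 by ID range).

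Cyp26b1, which clears retinoic acid, rose by ID range with 748, 691 and 523 in high-iron hearts and 440.5, 464 and 332 in control hearts (0.67 ± 0.11, adjusted p 0.0107), and missed the threshold on 4 arrays (adjusted p 0.0747). It was the 1 call of 17 in retinoic acid metabolism (against 0.0623% of all named genes that rose by ID range). Lgals4, a galectin best known from gut epithelium, rose in both fits with 840.3, 1038 and 1022 in high-iron hearts and 486, 656 and 643 in control hearts (0.71 ± 0.12, adjusted p 0.0126 by ID range, and 0.88, adjusted p 0.00115 on 4 arrays). Irx3, a transcription factor of the conduction system, rose on 4 arrays with 641, 810.1 and 705 in high-iron hearts and 489, 519.9 and 512 in control hearts (0.60, adjusted p 0.0108) and lay just outside the threshold by ID range (adjusted p 0.0526). Cirbp, an RNA-binding protein induced by cold, was just inside it (0.41 ± 0.08, adjusted p 0.0499), and its relative Rbm3 gave 0.30 ± 0.07 (adjusted p 0.3).

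The other named falls by ID range were Frmd5 (-0.53 ± 0.08, adjusted p 0.00819), Igsf1 (-0.50 ± 0.08, adjusted p 0.0125), Tcim (-0.42 ± 0.07, adjusted p 0.0302), Ltbp4, which holds latent TGF-beta in the matrix (-0.42 ± 0.08, adjusted p 0.0302), and Wif1, an inhibitor of Wnt signalling (-0.51 ± 0.09, adjusted p 0.0302). Fam214a rose (0.43 ± 0.08, adjusted p 0.0302). Rell2 (higher) and Ndufaf4 (lower) were called on a probe that is not their brightest, and another Ndufaf4 probe gave -0.03. Dim further probes of some called genes had the other sign by ID range, namely Hspb1 (0.07), Id1 (0.07), Igsf1 (0.05), Acta2 (0.02 and 0.02) and Angptl4 (-0.02). Further probes of Igsf1 (-0.21 and -0.06), Acta2 (-0.30 and -0.13), Angptl4 (0.23), Lgals4 (0.13) and Fam214a (0.02) kept the sign of the call. None of these further probes passed. Inpp5j fell on 4 arrays alone (-0.47, adjusted p 0.0422). Of the 42 probes, 7 carry no symbol.

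Collagens leaned lower without a call. Of 40 genes, 0 passed by ID range or on 4 arrays, 8 were lower and 0 higher at an unadjusted p under 0.05 (against 3.31% and 3.04% of all named genes), and the median was -0.06. Col4a1, a chain of basement membrane collagen, read 2984, 2812 and 2460.2 in high-iron hearts and 3386, 3798 and 3429.9 in control hearts, without overlap (-0.36 ± 0.07, adjusted p 0.0956), and its partner Col4a2 had -0.35 ± 0.08 (adjusted p 0.122). The 24 profibrotic and matricellular genes gave no call either.

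Of the 43 pathway lists with members on the array, markers of cell types not counted, 42 had a median within 0.1 of 0 by ID range, and the heat shock genes were the exception at -0.18. Among the cell type marker lists, the platelet list (-0.13) and the seminal vesicle list (0.18) also lay beyond 0.1 by ID range, the seminal vesicle median being -0.06 on 4 arrays. The highest median of a pathway list was that of 72 cytosolic ribosomal proteins at 0.07, with 13 of them higher (against 3.04% of all named genes) and 0 lower at an unadjusted p under 0.05 and 0 past the threshold. The 39 proteasome genes (0.03) and 19 circadian clock genes (-0.06) gave no call.

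**Figure D4:**
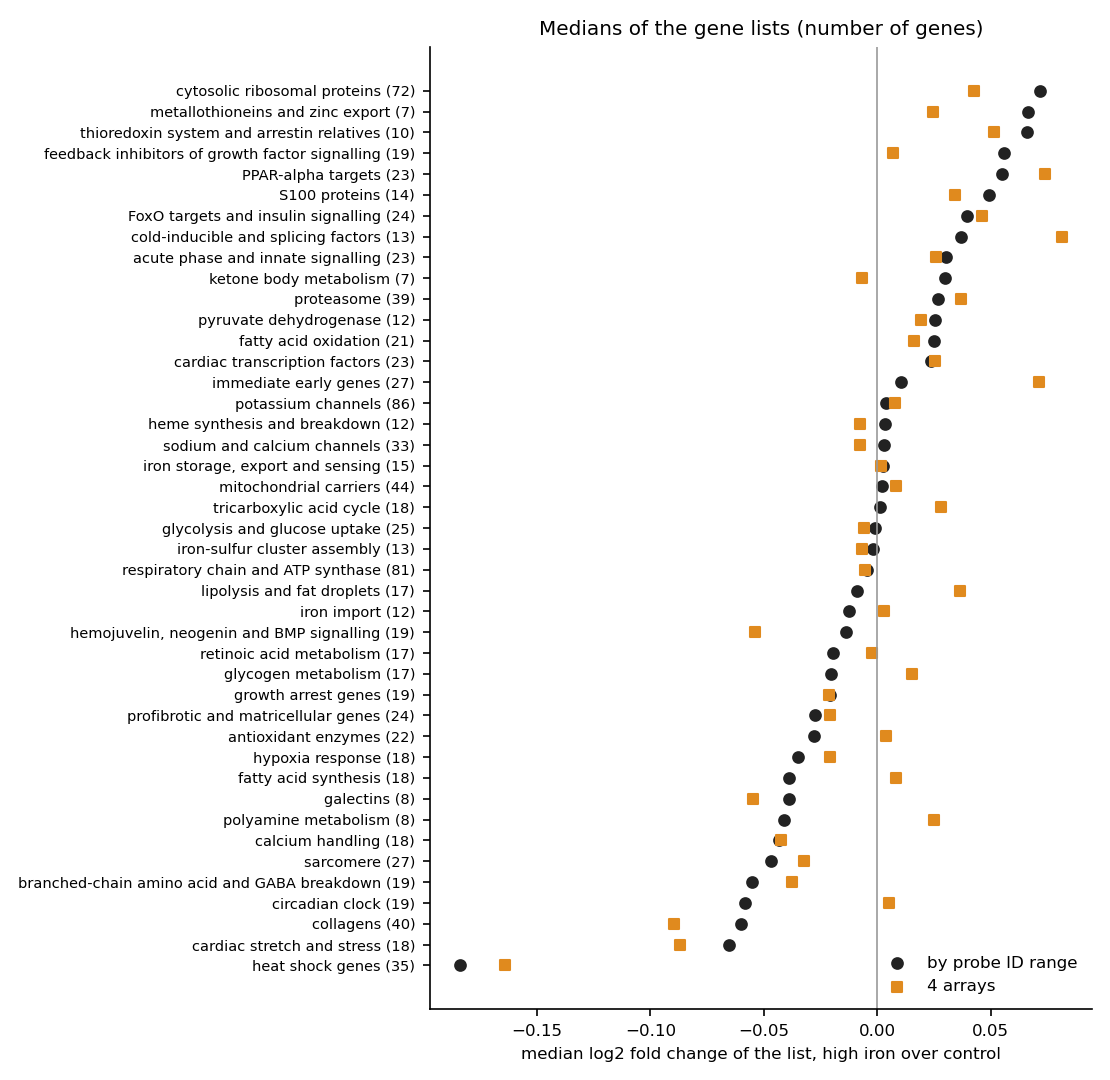
Median log2 fold change, high iron over control, of each pathway list with at least 5 genes (number in brackets) by ID range (black circles) and on 4 arrays (orange squares). The heat shock list stands lowest at -0.18 and the ribosomal proteins highest at 0.07 by ID range.

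Markers of other cell types were high on single arrays of either diet. On high-iron array 1 the atrial light chains Myl4 and Myl7 read 32988 and 20034. Myl4 was 479 and 436 in the remaining high-iron hearts and 2693, 1134 and 476 in control hearts. Myl7 was 287 and 306 in them and 1268, 549.8 and 281 in control hearts. The summed signal of 14 atrial markers was 9006 to 73627 in high-iron hearts and 9813 to 15459 in control hearts. Mybphl (3862), Dkk3 (3708) and Stard10 (3095) were also highest on that array, against at most 384, 1013 and 911 on any other heart array. Pam, Upk3b, Cpne5 and Clu were highest there by smaller margins. Kcna5, also on the atrial list, was lowest there (316, against 386 to 535 on the other heart arrays). Sln and Bmp10 read 208 to 262 on every heart array. The Nppa and Tbx5 probes have 9-digit IDs and give no usable value there. The same high-iron array carried the seminal vesicle secretions Svs5 and Svs4. Svs5 read 3519.5 there, against 256 and 295 in the other high-iron hearts and 224 to 269.9 in control hearts. Svs4 read 2268 there, against 214 and 228 in the other high-iron hearts and 205 to 212 in control hearts. Svs1 (700), Svs3b (555), Svs2 (479) and Svs3a (255) were also highest on it, while Svs6 (216), Pate4 (229), Spinkl (282) and Pip (275) were not. The summed signal of that list of 10 was 2474 to 8779 in high-iron hearts and 2474 to 2628 in control hearts.

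Control array 2 carried brown fat's uncoupling protein Ucp1 (214 to 242 in high-iron hearts, and 248, 2682 and 211 in control hearts), the fat synthesis enzyme Scd1 (532 to 933 in high-iron hearts, and 536, 4809 and 486 in control hearts) and the fat cell hormone Adipoq (288 to 354 in high-iron hearts, and 335, 735 and 291 in control hearts). The summed signal of the 13 white adipocyte markers was 23875 to 29974 in high-iron hearts and 25148 to 41866 in control hearts, and that of the 10 brown adipocyte markers 66493 to 98320 in high-iron hearts and 68219 to 105784 in control hearts. Most of the brown adipocyte sum comes from Cox7a1 and Cox8b, respiratory chain subunits that were bright on every heart array. Most of the white adipocyte sum likewise comes from Lpl, which read 19730 or above on every heart array. Of the other members, Car3 (1079) and Cidec (310) were also highest on control array 2. Plin1 (232), Retn (251), Lep (179), Dio2 (313) and Prdm16 (182) were not. It is on this array that the heat shock genes were highest, and the part of fat tissue in that was not tested. Control array 1 carried the platelet chemokine Ppbp (352 to 430.2 in high-iron hearts, and 1283, 371 and 395 in control hearts), and it is the array with the highest Acta1 and Pdk4 of its group. The 11 platelet markers summed to 3389 to 3737 in high-iron hearts and 3564 to 5540 in control hearts.

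The neutrophil proteins S100a8 (763, 1129 and 598 in high-iron hearts, and 653, 258 and 269 in control hearts) and S100a9 (599.8, 937 and 532 in high-iron hearts, and 519, 304 and 277 in control hearts) did not pass (1.14 ± 0.25, adjusted p 0.133, and 0.91 ± 0.20, adjusted p 0.108 by ID range), and only S100a9 had no overlap between diets. The whole list of 16 neutrophil markers, S100a8 and S100a9 included, summed to 4881 to 5975 in high-iron hearts and 4120 to 5160 in control hearts, with 0 calls. Ngp, also on the list, was lower without overlap (227, 254 and 243 in high-iron hearts, 274, 291 and 255 in control hearts). Camp, Ltf, Mpo and Elane overlapped between the diets.

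**Figure D5:**
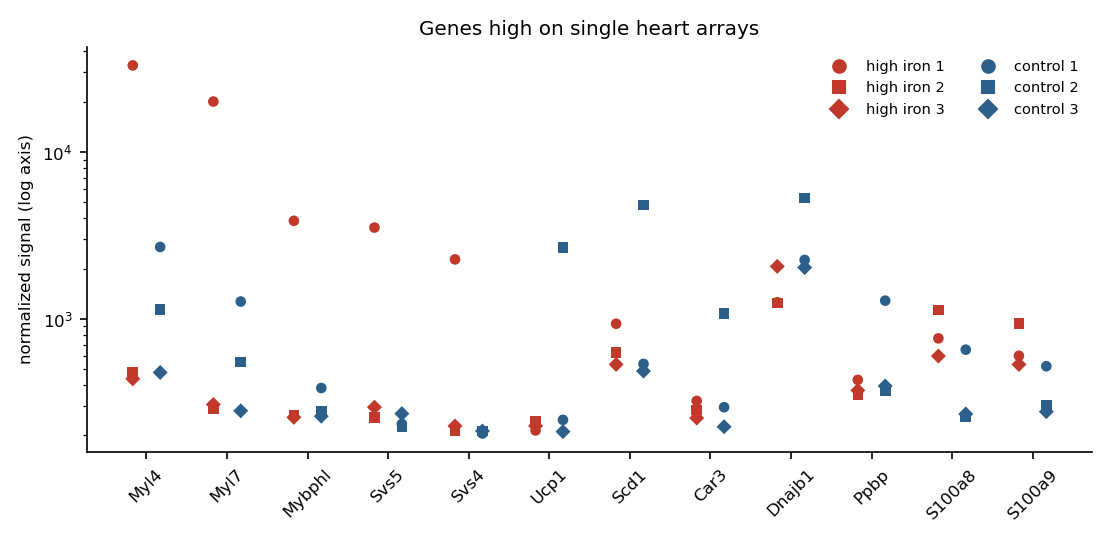
Normalized signal (log axis) of 12 genes on each heart array, high iron in red and control in blue, with circles, squares and diamonds for arrays 1, 2 and 3. Myl4, Myl7, Mybphl, Svs5 and Svs4 stand out on high-iron array 1, Ucp1, Scd1, Car3 and Dnajb1 on control array 2, and Ppbp on control array 1.

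By the ratio of mean signals over all 6 arrays, with no test, 40 probes were at least 1.4 times higher in high-iron hearts (0.0867% of all probes) and 36 at least 1.4 times lower (0.078%). Of the 40, 11 owed their mean to high-iron array 1, which was at least 2 times the next array, and 15 have 9-digit IDs. Of the 36, 10 owed it to 1 array in the same way, 8 of them to control array 2. Of the 40, 10 passed by ID range and 11 on 4 arrays, and of the 36, 18 passed by ID range and 9 on 4 arrays.

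The diet effect in the heart was set against that in skeletal muscle through the diet-by-tissue interaction. The study took both tissues from the same mice, but that equal replicate numbers mark 1 mouse is an assumption, and deviations of such pairs correlated at only 0.0262 to 0.0998. With all 12 arrays normalized together, 0 probes passed (0%; smallest adjusted p 0.514, 1547 at an unadjusted p under 0.05), and by ID range 8 did (0.0173%). Acta1 fell in the heart (-1.35) and gave -0.07 in skeletal muscle (difference -1.34 ± 0.22, adjusted p 0.0167). Rrad rose in the heart (0.88) and gave 0.01 in skeletal muscle (difference 0.88 ± 0.14, adjusted p 0.0119). Hsph1 fell in both tissues, by 1.20 in the heart and by 0.82 in skeletal muscle on the log2 scale (adjusted p 1.4e-05 in skeletal muscle, where 46 probes or 0.0997% passed on 6 arrays), and the difference of -0.39 ± 0.16 did not pass (adjusted p 0.974). Neither did the differences for Angptl4 (1.16 ± 0.23, adjusted p 0.0953), Txnip (0.64 ± 0.13, adjusted p 0.137), Pdk4 (0.78 ± 0.26, adjusted p 0.974) and Tfrc (-0.04 ± 0.20, adjusted p 0.999).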

How the data were processed

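RNA of single mice was hybridized to Illumina Sentrix Mouse-6 BeadChips, 1 array a sample. The deposited sample files hold the intensity of each probe on a linear scale, which the authors read with BeadStudio before normalization. Whether a background was subtracted, and which array lay on which chip, is not given in the sources used here. A table that the authors quantile normalized (intensity) served only as an alternative. The medians of the deposited intensity values were 332, 272 and 193 on the high-iron heart arrays and 337, 283 and 188 on the control heart arrays. Precision is limited by how many arrays there are.

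From the deposited intensity values, quantile normalization over 12 arrays and log2 with no offset were computed in R 4.3.3. Diets were compared with limma 3.58.1, by two-sided tests from lmFit and eBayes at a threshold of 0.05 after Benjamini-Hochberg correction across the 46133 probes, on 6 arrays and on 4. The interaction with tissue was fitted over 12 arrays. There, samples that share a diet and a replicate number were treated as 1 mouse, entered as a random block (consensus correlation 0.0717). After the data were seen, the fit by probe ID range was added, which sets every 9-digit probe of 2 heart arrays to missing, where the study excluded only individual failed probes. Its fold changes come from its own normalization, so they can differ slightly from the ratio of the signals printed. The p-values measure the spread between the arrays of each group, which the labels call biological replicates.

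Probes were named from the platform annotation: 29542 have 1 symbol, 11 several and 16580 none, for 17658 symbols, and the brightest probe stands for a gene. Members, gene lists and the 2 arrays left out were chosen with earlier results of these data known. By rule, the text names calls on 4 arrays, the 15 genes of smallest p in each direction on 6 arrays, up to 4 genes a list, all iron import and storage genes, and the 10 largest ratios in each direction. Calls by ID range, single-array markers and genes named for their role were added after their values were seen. Lists were described by counts and medians, with no set test. Scripts were tested on simulated data.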

Additional observations from a re-analysis of the deposited data

Results flagged for a closer look

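The diet effect by probe ID range differed between heart and skeletal muscle for 8 probes, by the test of the diet-by-tissue interaction in limma, and for 5 of them the effect in the heart was the higher. Acta1 had a difference, heart minus skeletal muscle, of -1.34 ± 0.22 (adjusted p 0.0167), and Frmd5, with -0.53 in the heart and 0.08 in skeletal muscle, one of -0.61 ± 0.11 (adjusted p 0.0296). Rrad had 0.88 ± 0.14 (adjusted p 0.0119). Fos gave 0.64 in the heart and -1.03 in skeletal muscle, a difference of 1.65 ± 0.27 (adjusted p 0.0119). Mettl21c gave -0.04 in the heart and -0.84 in skeletal muscle, so its difference of 0.92 ± 0.12 (adjusted p 0.00357) comes with almost no change in the heart. Of the 3 probes without a symbol, one had -0.88 in the heart and 0.39 in skeletal muscle (difference -1.21, adjusted p 0.0119), one 0.83 and 0.01 (difference 0.83, adjusted p 0.0119), and one 0.48 and -0.40 (difference 0.86, adjusted p 0.0296). In the fit over 12 arrays normalized together none of them passed.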

How the results depend on the processing

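The number of probes called in the 6-array comparison was 0 in the planned fit and stayed 0 with the authors' normalized values, with quantile normalization over the heart arrays, with median scaling, with an offset of 50, without dim probes, with array weights, with failed probes set to missing and with the replicate block. It became 2 with a trended and robust prior, 5 in 1 fit over the 4 groups, 28 without both high-iron array 1 and control array 2, 42 by probe ID range and 25 over the shorter IDs alone, and 0 to 1 with 1 array left out. On 4 arrays the count of 28 became 0 with median scaling, 16 with the authors' values, 49 with the offset and 44 with the trended prior, and ran from 37 to 81 with 1 array left out, which leaves 1 array in a group, assumed to vary like the other group. By ID range the count of 42 became 0 with median scaling, 65 with the offset and 39 with the replicate block, and ran from 11 to 72 with 1 array left out. For the tissue difference, the count of 0 became 8 without the 2 arrays and 8 by ID range, where it ran from 4 to 11 with 1 heart array left out and was 6 with no replicate block. At 1.4-fold, the 40 higher probes became 24 without both arrays and 33 to 156 without 1 array, and the 36 lower probes became 20 and 46 to 118. The cause was not tested.

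Deviations of same-numbered heart arrays correlated across diets at -0.46, -0.54 and 0.49. They were taken over all probes, where high-iron array 1 and control array 2, which stood apart, correlated at 0.64. These values therefore cannot show whether replicate numbers mark a pairing or a batch. The medians before normalization, given above, were close between same-numbered arrays. The replicate block is given only for completeness.

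The alternatives gave 3614 values, which are fold changes of genes and medians of lists. Of these, 13 gene values changed sign with an unadjusted p under 0.05 in either fit, among them Nppa, which gave 0.28 with the replicate block. In the fit on 6 arrays, Myl4 ran from -1.31 to 1.81 with 1 array left out and was -1.31 without both arrays, where Mybphl was -0.28 (1 left out: -0.22 to 1.74), Myl7 -1.01 (1 left out: -0.97 to 2.09) and Dkk3 -0.54 (1 left out: -0.82 to 0.84). By ID range with 1 array left out, Myl4 ran from -1.23 to 1.70, Myl7 from -0.92 to 2.00, Dkk3 from -0.75 to 0.78, Ppbp from -0.94 to 0.012, Scd1 from -1.16 to 0.36, Ucp1 from -1.71 to 0.013 and Nppa from -0.34 to 0.13. Another 240 values fell short of the threshold they had passed and 56 passed it anew. Dim probes can hide changes, and 9-digit probes rest on 4 heart arrays.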
